A study of Homo sapiens with 4 samples.

Results

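The subunits of cullin-RING ligases were examined for YTHDF1 binding in SNU638, a long-established line of human gastric cancer cells. The genes were taken from the deposited list of RNA immunoprecipitation sequencing (RIP-seq) peaks as the protein-coding genes whose symbols mark a cullin (CUL), an F-box protein (FBXW, FBXL or FBXO), a BTB-Kelch protein (KLHL or KBTBD) or a DDB1- and CUL4-associated factor (DCAF), together with SKP1, SKP2, RBX1, KEAP1 and BTRC. They came to 70 of the 7550 genes in the list and to 326 of its 26819 windows. Of the single names, SKP1 and KEAP1 had a window, whereas SKP2, RBX1 and BTRC had none. All cells overexpressed YTHDF1, a cytoplasmic reader of N6-methyladenosine (m6A), had no serum for 24 h and were next exposed for 24 h to interferon-γ (IFN-γ), used at 10 ng/ml. The 4 libraries formed 2 groups, the YTHDF1 immunoprecipitate (IP-YTHDF1) and the input RNA, with 2 biological replicates each. None of the 4 libraries came from cells without IFN-γ or without YTHDF1 overexpression, so the values describe binding in this state and not a response to IFN-γ, and they describe a raised level of the reader.

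Cullin-RING ligases are modular enzymes that attach ubiquitin to chosen proteins. A cullin forms the scaffold, a RING subunit such as RBX1 brings the ubiquitin-loaded enzyme, and an exchangeable adaptor holds the substrate. CUL1 reaches its substrates through SKP1 and an F-box protein, CUL3 through a BTB-Kelch protein, and CUL4A and CUL4B through DDB1 and a DCAF. The conjugation of NEDD8 to the cullin switches the enzyme on, the COP9 signalosome removes NEDD8, and CAND1 allows the adaptors to be exchanged. In cancer cells these ligases set the levels of cyclins, MYC, β-catenin, the NF-κB inhibitor IκBα and the stress regulator NRF2.

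Each row of the list is a window of 50 bp with a score, called the signal value, that compares IP-YTHDF1 with input, and with its p-value and q-value. Its scale is unstated, and a larger value was read only as a higher place in the list. No value belongs to a single library, so depth is unknown here, no spread between replicates can be given and the 2 groups were not tested against each other. A gene without a window may be unbound or too weakly expressed to be called, and these cannot be told apart. The q-values appear to be adjusted within each gene and not over the list. No gene has more than 9 windows in the list, and a count of 9 is read as 9 or more. Windows left out of such a gene may be stronger than those listed. The strongest window of a gene therefore means the strongest listed one throughout.

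A YTHDF1 window was listed for 70 of the 141 RefSeq protein-coding genes whose symbols fit the same names, a share of 49.6% (Wilson 95% interval 41.5% to 57.8%). Of all 20056 RefSeq protein-coding genes, 31.8% had a listed window. Expression was not accounted for, and the median RefSeq gene length was 38129 bp for the 70 genes with a window, 33577 bp for the 71 without and 24093 bp for all protein-coding genes. The part of length and expression in the difference was not tested. With q limited to 0.001, 56 of the 141 genes (39.7%) still had a window, against 21.2% of all protein-coding genes. A window with a signal value of 2 or more was listed for 53 (37.6%), against 22.0%, and one of 2.5 or more for 21 (14.9%), against 9.12%.

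The windows were about as strong as those of other coding genes. The strongest window per gene had a median signal value of 2.27, with quartiles of 2.01 and 2.56, next to a median of 2.23 and quartiles of 1.94 and 2.56 over all 6679 protein-coding genes with a window. A value of at least 2.5 was reached by 21 of the 70 genes (30.0%), against 28.8% of all listed coding genes, and a value of at least 3 by 8 (11.4%), against 8.34%. The number of windows per gene was compared in the same way. A lone window was listed for 13 of the 70 (18.6%), against 29.0% of listed coding genes, and the limit of 9 windows was reached by 12 (17.1%), against 12.8%. The median number of windows tested per gene, computed from the p-values and q-values, was 40.5 in the 70 genes and 35 in all listed coding genes. Genes at the limit of 9 windows enter these medians with a lower bound. The part of this difference in the counts of listed windows was not tested.

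**Figure D1:**
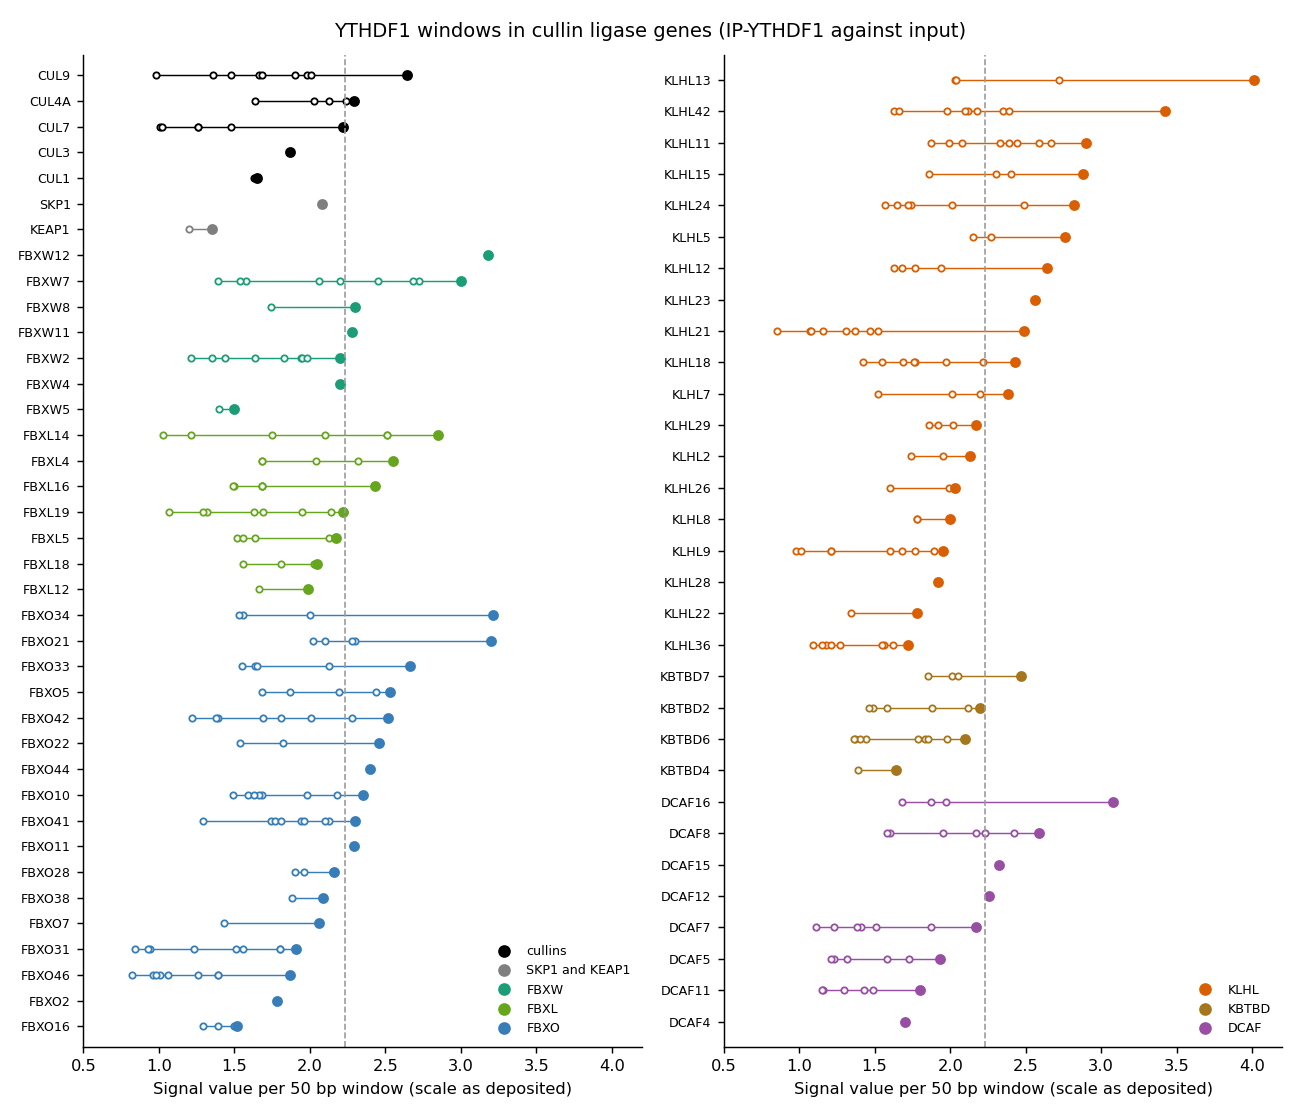
Signal value of each listed 50 bp window (horizontal axis, scale as deposited) in 69 of the 70 genes, 1 row per gene, coloured by family, with the strongest window filled and the others open. The dashed line marks 2.23, the median of the strongest window over all listed protein-coding genes. KLHL13 reaches 4.01 and KEAP1 stays at 1.35.

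By family, the shares ran from 40.0% to 70.0%, with wide and overlapping intervals. A window was found in 5 of 8 cullins, 7 of 10 FBXW genes, 8 of 17 FBXL genes, 17 of 36 FBXO genes, 19 of 37 KLHL genes, 4 of 9 KBTBD genes and 8 of 19 DCAF genes, and in 2 of the 5 single names. The median of the strongest window was 2.22 in cullins, 2.28 in FBXW, 2.33 in FBXL, 2.30 in FBXO, 2.43 in KLHL, 2.15 in KBTBD and 2.22 in DCAF genes. KLHL genes, the largest family with 19 of the 70, held 8 of the 21 genes with a value of at least 2.5. They also held 5 of the 12 genes with 9 windows. These were 42.1% and 26.3% of the KLHL genes, against 30.0% and 17.1% of the 70 and 28.8% and 12.8% of all listed coding genes. These differences between families were not tested, since genes of a family are not replicates of a condition.

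**Figure D2:**
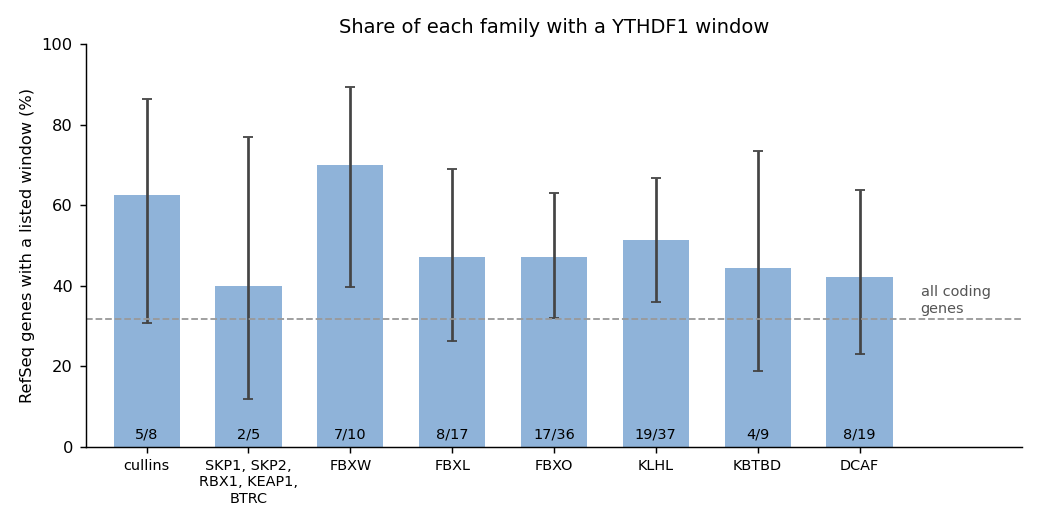
Percentage of the RefSeq protein-coding genes of each family that had at least 1 listed window (bars, with genes listed over genes in the family printed at the foot and Wilson 95% intervals as error bars). The dashed line marks 31.8%, the share of all RefSeq protein-coding genes. The bars run from 40.0% to 70.0% and their intervals overlap.

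The windows were next placed relative to the gene start. The strongest window was centred within 500 bp of the RefSeq gene start in 18 of the 69 genes that could be placed (26.1%). Of the 6161 listed coding genes that could be placed it was 31.0%, a share inside the Wilson interval of 17.2% to 37.5% for the 69. Among the 21 genes with a value of at least 2.5 the strongest window lay near the start in 10 (47.6%, Wilson interval 28.3% to 67.6%), against 39.1% of such coding genes. Among the 48 weaker genes this held for 8 (16.7%, interval 8.70% to 29.6%), against 27.8%. Over all windows, the median signal value was 2.01 near the start and 1.77 elsewhere in the 69 genes, next to 1.99 and 1.79 in all coding genes. Windows within 500 bp of the RefSeq gene end were few, with 4 of 322 (1.24%) against 1.77%. Distances are genomic and include introns, the start is that of the outermost RefSeq transcript, and in genes at the limit of 9 windows the side with the higher coordinates may be missing.

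**Figure D3:**
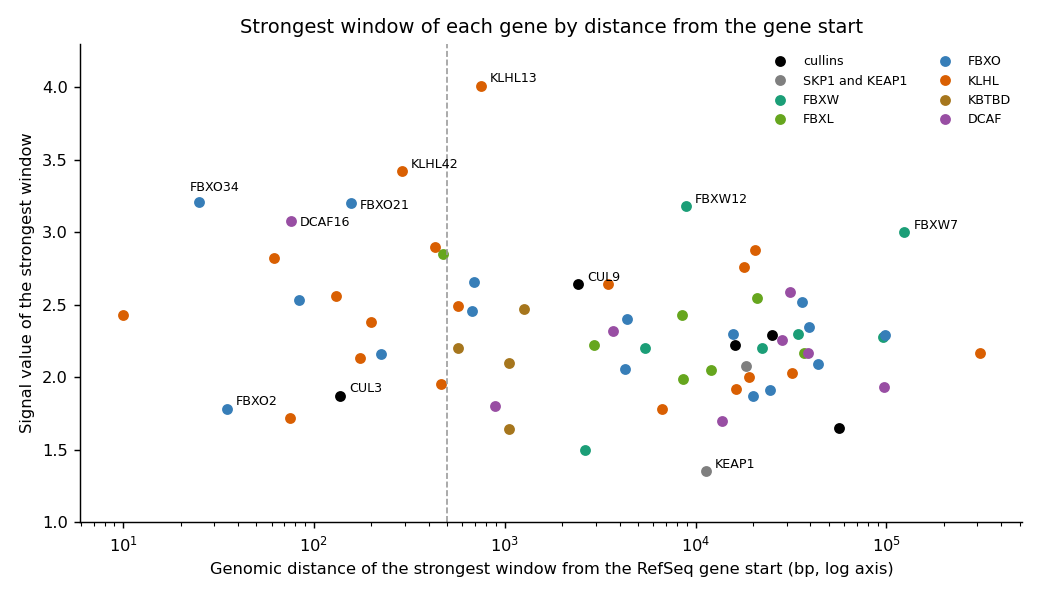
Signal value of the strongest window of each gene (vertical axis) against its genomic distance from the RefSeq gene start (horizontal axis, bp, logarithmic), coloured by family. The dashed line marks 500 bp, KLHL18, whose strongest window straddles the start, is drawn at the left end, and FBXO16, whose windows lie outside its RefSeq interval, is left out, as is the gene not shown in the plot of all windows. Of the labelled genes at 3 or above, FBXO34, DCAF16, FBXO21 and KLHL42 lie left of the line.

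The letters of 15 of these windows, in 8 genes, could be read from the RefSeq sequences around gene starts (GRCh38.p14, from 250 bases before to 50 after each start). They are shown as stretches of 29 bases because they let the 5′ windows be compared with the m6A consensus. That consensus, DRACH, has 18 spellings of 5 letters, namely A, G or T, then A or G, then AC, then A, C or T. Capitals mark any of these spellings or a GGAC, searched on the strand of the gene, and the letters run 5′ to 3′ as DNA. Where the table entry that covers a window is on the other strand, as for FBXO34, FBXO2 and this window of KLHL42, its complement was read.
FBXO34, chr14:55271422-55271450, plus strand, in the window with signal value 3.21: ctcggtccgactcagcggtggggagtgag
FBXL14, chr12:1594551-1594579, minus strand, in the window with 2.51: aaagcgggcgagAGACAaaggcagcagga
KLHL18, chr3:47282918-47282946, plus strand, in the window with 2.43: gtgtctagccggccggcgaggcctgcgca
KLHL42, chr12:27780354-27780382, plus strand, in the window with 2.12: gatccgcctggaGGACCgctgctacccgg
FBXO2, chr1:11654390-11654418, minus strand, in the window with 1.78: gcgccgGGACTcgccgccccgGGACTcgc
CUL4A, chr13:113209615-113209643, plus strand, in the window with 1.64: ttccggcccagccatggcGGACgaggccc
The strongest of the 15 windows, in FBXO34, held none of the 18 spellings over its 50 bases, and neither did the window of KLHL18. The weak window of FBXO2 held GGACT at 2 places. The stretch of CUL4A has GGAC followed by G, which is not one of the 18 spellings.

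In all, 3 of the 15 windows (20.0%) held a DRACH spelling, against 39.2% of the 885 coding windows that could be read in the same way and 49.6% of the first 50 bases of all 35116 entries of the RefSeq table. GGAC was found in 5 of the 15 (33.3%), against 23.6% and 18.9%. The 15 windows had a median GC content of 78.0%, against 70.0% and 60.0%. These 15 windows come from 8 genes and neighbour each other in several of them, so the shares are a description of few sequences. Only windows inside these start sequences could be read, and the letters of all other windows were not analysed here. The starts in these sequences can differ from the outermost start used for distances. The CUL4A window printed above was centred 1425.5 bp from that outermost start.

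Among the cullins, the scaffolds, CUL9 had the strongest window. CUL9, a cytoplasmic binding partner of p53, reached the limit of 9 windows, with signal values from 0.98 to 2.64 between positions 43184485 and 43187984 of chromosome 6 (GRCh38, as all positions here). CUL4A, the scaffold used by DCAF proteins, had 5 windows in 2 blocks. The block at 113209594 to 113209743 of chromosome 13 had signal values of 1.64, 2.24 and 2.13 in order of position, and the block at 113233194 to 113233293 had 2.03 and 2.29. CUL4B, its close relative on the X chromosome, had no listed window. CUL7, which assembles with FBXW8, had 6 windows from 1.01 to 2.22, and its strongest was also the one nearest to the 3′ end, 75 bp from it. FBXW8 itself had 2 windows, at 1.74 and 2.30.

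CUL1 and CUL3, the scaffolds of F-box and BTB-Kelch complexes, had few windows. CUL1 had 2 windows, with 1.63 and 1.65, and 7.31% of listed coding genes had a weaker strongest window. CUL3 had a lone window at 1.87, with a deposited q-value of 0.0358, and it lay 137 bp from the gene start. SKP1, which joins CUL1 to F-box proteins, had a lone window at 2.08 with a q-value of 0.0357 among 5 windows tested. With q limited to 0.001, CUL3, SKP1 and KEAP1 would have no window. CUL2, CUL5, RBX1, SKP2, which recognises the cell-cycle inhibitor p27, and BTRC, which recognises IκBα and β-catenin, had no listed window. FBXW11, the paralogue of BTRC, had a lone window at 2.28, with a q-value of 0.000203.

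In FBXW7 the listed windows formed a peaked block. FBXW7 marks cyclin E, MYC and JUN for degradation and is a tumour suppressor. Its 9 windows, which reach the limit, lay within 500 bp on the minus strand of chromosome 4, from position 152411345 to 152411844. In order of position the signal values were 1.39, 1.58, 2.06, 2.45, 2.72, 3.0, 2.68, 2.20 and 1.54, a single rise and fall over the listed neighbouring windows. Further windows at higher coordinates, towards the 5′ end of the gene, may be missing from the list. The strongest of them had a q-value of 1.35e-12 and was centred 124422 bp from the RefSeq gene start, far from the outermost 5′ end. FBXW12 had the largest listed value of the family, 3.18, in a lone window among 5 tested. FBXW2, with 9 windows, ran from 1.21 to 2.20, and FBXW5 had 2 windows at 1.40 and 1.5.

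Among the FBXL genes, FBXL14, which targets the transcription factor SNAIL, had its stronger windows towards the gene start, with 2.51, 2.10, 2.85 and 2.51 inwards from the start and then 1.03, 1.21 and 1.75 further inside. FBXL5, the iron sensor that targets IRP2, had 5 windows from 1.52 to 2.17, and FBXL4, a regulator of mitophagy, had 5 from 1.68 to 2.55. None of the 8 FBXL genes in the list had a lone window, and the same held for the 4 KBTBD genes, against 29.0% of all listed coding genes with 1.

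FBXO34 and FBXO21 led the FBXO genes. In FBXO34 the window at the RefSeq start, whose letters are printed above, gave 3.21, with a q-value listed as 0, and the adjoining window gave 1.56. The other pair of windows, far downstream, had 2.00 and 1.53. In FBXO21, 4 adjacent windows close to the start had 2.10, 2.28, 3.20 and 2.30 going inwards, and the remaining window, far inside the gene, had 2.02. FBXO5, the inhibitor of the anaphase-promoting complex also known as EMI1, had 5 windows between 1.68 and 2.53, spanning 300 bp at its start. FBXO38, a receptor reported to target the immune checkpoint protein PD-1, had 2 windows at 1.88 and 2.09. FBXO11, a receptor for BCL6, had a lone window at 2.29. FBXO41 and FBXO31 reached the limit of 9 windows, with ranges of 1.29 to 2.30 and 0.84 to 1.91. At the weak end, FBXO46 also had 9 windows, and all but the strongest (1.87) lay between 0.82 and 1.39.

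KLHL13 had the strongest listed window of the 70 genes. It and KLHL9 are paralogous CUL3 adaptors that act on Aurora B in mitosis. KLHL13, on the minus strand of the X chromosome, had 4 windows, with 2.03, 4.01, 2.72 and 2.04 in order of position. The strongest, at 118116564 to 118116613, had a q-value of 7.79e-14 and exceeded the strongest window of 99.5% of listed coding genes. KLHL9 reached 9 windows between 21334616 and 21335165 on chromosome 9, but no listed value was above 1.95 and the lowest was 0.98. In the listed windows the pair thus differed in both directions, since the gene with more windows had the lower values. KLHL9 is at the limit of 9, so higher values may be missing and its highest value is not known. KLHL21, another CUL3 adaptor of Aurora B, had 9 windows, a lone high one of 2.49 and the rest from 0.85 to 1.52.

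**Figure D4:**
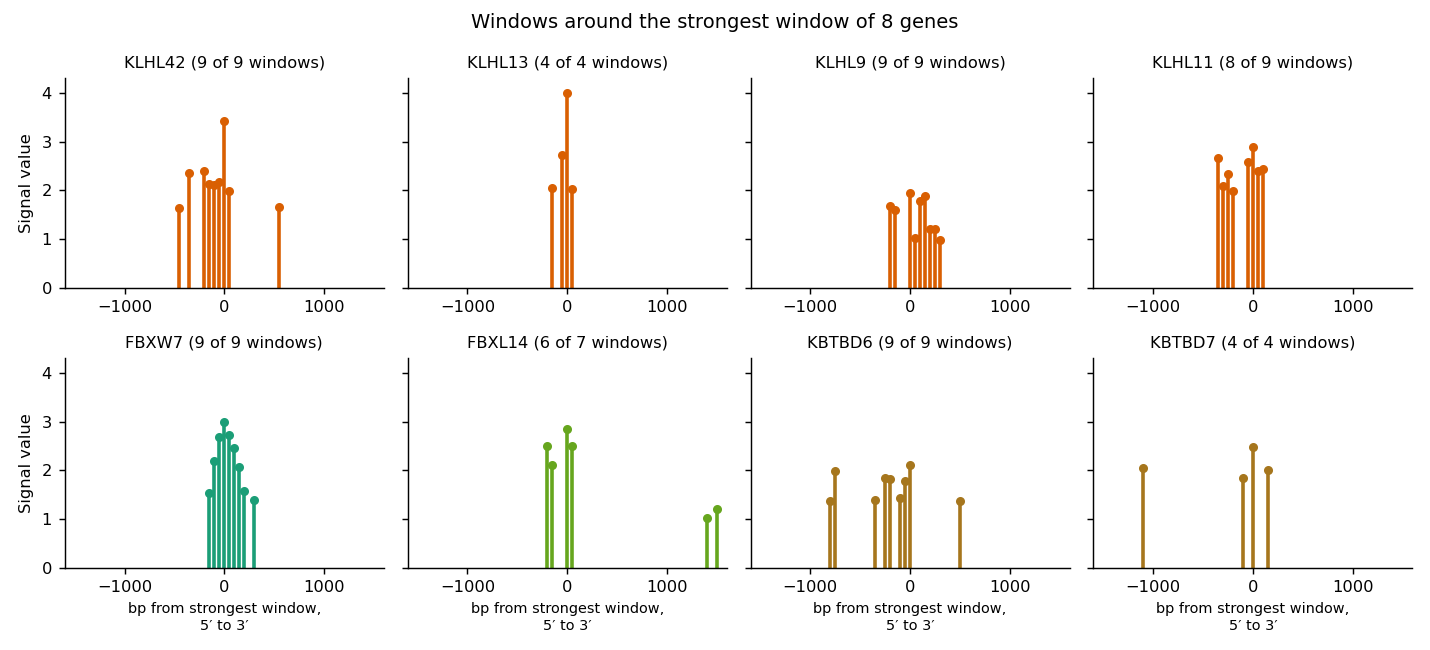
Signal values (vertical axis) of the listed windows of 8 genes against their distance in bp from the strongest window of the gene (horizontal axis, 5′ to 3′ from left to right). Windows more than 1500 bp away are not drawn. FBXW7 rises to 3.0 and falls over the listed neighbouring windows, whereas the 9 listed windows of KLHL9 stay at or under 1.95. Both genes are at the limit of 9, so further windows may be missing.

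KLHL42, an adaptor for the microtubule-severing protein katanin, had 9 listed windows at its 5′ end. It is on the plus strand and at the limit of 9, so windows further downstream may be missing. In order of position from 27780049 on chromosome 12 the signal values were 1.63, 2.35, 2.39, 2.12, 2.10, 2.18, 3.42, 1.98 and 1.66. The first pair lay upstream of the RefSeq gene start. KLHL11 likewise had 8 of its 9 windows close to the start, with values from 1.99 to 2.90, and 1.87 in the window further in. KLHL15, an X-linked adaptor of a phosphatase subunit, reached 2.88 at 20590 bp from its start. KLHL24, which controls keratin 14, had 7 separate windows over 44200 bp, of which the first reached 2.82. KLHL12, which ubiquitinates a coat protein of secretory vesicles, had 5 windows from 1.63 to 2.64. KLHL36 had 9 listed windows at 1.09 to 1.72. Its strongest listed window was the lowest such value of the 12 genes with 9, genes in which stronger windows may be missing.

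KEAP1, the CUL3 adaptor that holds NRF2 at low levels, had the lowest strongest window of the 70 genes. Its 2 windows had 1.20 and 1.35, with q-values of 0.0348 and 0.0152, and 2.02% of listed coding genes had a weaker strongest window. The other genes at the lower end were FBXW5 (1.5), FBXO16 (1.52), KBTBD4 (1.64) and CUL1 (1.65). The place of FBXO16 is uncertain, since its windows lay outside its RefSeq interval and overlapped windows of ZNF395. The neighbouring genes KBTBD6 and KBTBD7, which act together with CUL3 on the RAC activator TIAM1, both had windows on the minus strand of chromosome 13. KBTBD6 had 9, from 1.36 to 2.10, and KBTBD7 had 4, with 2.01, 2.47, 1.85 and 2.05 in order of position. KBTBD2, which controls a subunit of PI3-kinase, had 6 windows from 1.46 to 2.20.

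Of the DCAF genes, DCAF16 was the strongest. Its window at 17810656 to 17810705 on chromosome 4, centred 76 bp from the gene start, reached 3.08 (q-value 7.57e-14), and its other 3 windows had 1.68, 1.97 and 1.87 going inwards. DCAF7 had 7 windows, and its strongest, 2.17, lay in the block nearest to the gene end, whereas the 3 windows at its start had 1.11, 1.23 and 1.87. DCAF15, the receptor recruited by the drug indisulam, and DCAF12 each had a lone window, at 2.32 and 2.26. DCAF5 had 6 windows from 1.21 to 1.93. DCAF1 and DCAF6 had no listed window.

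Some windows cannot be given to 1 gene. On the same strand, 20 windows in 5 of the 70 genes overlapped a window of another gene. All 7 windows of DCAF8 overlapped windows of AL139011.2, and all 4 of FBXO16 overlapped windows of ZNF395. The same held for 5 of 8 windows of FBXO10 with AL513165.2, for 3 of 9 of FBXO31 with AC010531.1 and for 1 of 6 of DCAF11 with AL136295.3. The FBXO16 windows had 1.29 to 1.52, and the overlapping ZNF395 windows had 1.64 to 2.01. Reads of such windows could come from either gene, so FBXO16 and DCAF8 are uncertain. In FBXL14, 1 of 7 windows overlapped a window of WNT5B on the opposite strand.

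The regulators and partners of the ligases formed 6 further lists, in which 34 of 57 genes (59.6%) had a listed window, against 31.8% of all RefSeq protein-coding genes. The lists were chosen with earlier results of these data known and expression was not accounted for, so their shares are a description only. The 2 CAND genes stood high among them. CAND1 had 8 windows from 2.07 to 3.40 and CAND2 had 9 from 1.63 to 3.5, and their strongest windows exceeded those of 97.3% and 98.0% of listed coding genes. GLMN, an inhibitor of the RING subunit, had none. In the NEDD8 cycle 4 of 11 genes (36.4%) had a window, near the 31.8% of all coding genes, and these were NEDD8 (2.17), its conjugating enzyme UBE2M (2.09), DCUN1D3 (2.46) and DCUN1D5 (2.85). The subunits UBA3 and NAE1 of the activating enzyme had none. In the COP9 signalosome it was 3 of 10 (30.0%), also near that share, namely COPS3 (2.86), COPS8 (1.84) and the catalytic subunit COPS5 (2.37).

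Among linkers, DDB1 had 9 windows up to 2.5, DDA1 had 4 up to 1.68 and the second RING subunit RNF7 had a lone window at 1.59, while ELOB and ELOC had none. Of 16 other substrate receptors 13 (81.2%) had a window, against 31.8% of all coding genes. SPOP was the strongest (2.73), and VHL, the receptor for HIF1A, had 8 windows up to 2.17. SOCS1, a feedback inhibitor of IFN-γ signalling, had a lone window at 2.54, and SOCS3 had 2 at 0.89 and 1.10. Of 12 substrates 9 (75%) had a window, against the same 31.8%, with WEE1 the strongest at 3.29. Expression was not accounted for in these shares either, and these lists too were chosen with earlier results of these data known. NFE2L2, which encodes NRF2, had 8 windows up to 2.06, next to 1.35 in its receptor KEAP1. CTNNB1, which encodes β-catenin, had 8 up to 2.60 and NFKBIA, which encodes IκBα, had 3 up to 2.12. Their receptor BTRC had no listed window, whereas its paralogue FBXW11 had a lone window at 2.28. FBXW7 went the other way, with 3.0 next to 2.09 in MYC, 2.41 in JUN and no listed window in CCNE1, which encodes cyclin E. A relation between receptors and their substrates was not tested. CCNE1, CDC25A and CDT1 had none.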

How the data were processed

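The deposited peak table of the YTHDF1 RIP-seq comparison (2 IP-YTHDF1 and 2 input libraries) was used. Per the methods, RNA was pulled down with antibody to FLAG or IgG, and per the labels the libraries were stranded and depleted of ribosomal RNA. The submitters' processing notes name STAR 2.7.3a and GRCh38. The study describes its protein-coding peaks as a union over the replicates, and each deposited window has a single value. The peak caller and the treatment of reads with several matches are not given in the sources used here. The deposited signal value and its rank are a score of unstated scale, and its p-value and q-value were likewise taken as deposited. The table has 0 columns of values per library, so depth and replicate error are unknown.

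Of 26820 rows, 1 repeat was dropped. Starts are printed counted from 1. Genes, lists and the distance of 500 bp were chosen with earlier results of these data known. Genes named are all cullins and single names, FBXW7, FBXW11, the 10 strongest and 5 weakest, genes with 9 windows, close paralogues and the strongest gene of each list. Of these, 1 gene is not reported here or drawn by itself, and it stays in all counts and medians. Others, such as FBXL4, FBXL5, FBXO11, FBXO38, KLHL12, KLHL24, DCAF5, DCAF7, DCAF12 and DCAF15, were named for their known roles after their values were seen. Genes at 9 windows are KLHL42, FBXW7, KLHL11, CUL9, KLHL21, FBXO41, FBXW2, KBTBD6, KLHL9, FBXO31, FBXO46 and KLHL36.

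Windows tested per gene were computed from q and p, taking q as a Benjamini-Hochberg value within the gene. On simulated data this was recovered within 1% in 100% of 1996 genes, all with 9 or fewer significant windows. Genes cut at the limit were not simulated, and for genes at 9 windows the computed number is a lower bound. Of 6674 coding symbols, 6370 (95.4%) matched RefSeq (GRCh38.p14) by symbol or unambiguous synonym, and 97.3% of coding windows with a RefSeq symbol lay inside their RefSeq interval. Intervals are Wilson 95% intervals and cover counting error only. The tools were SciPy 1.17.1, pandas 2.3.3 and NumPy 2.4.6 under Python 3.11.15, with figures by matplotlib 3.10.9.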

Additional observations from a re-analysis of the deposited data

How the results depend on the processing

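No paired analysis was possible because replicates are not told apart in the deposited windows, and leaving out a replicate could not be done for the same reason. The planned placing of windows in transcript parts was not run, because exon annotation was not used here. A q-value of at most 0.001 left 145 windows in place of 326, 39.7% of family genes in place of 49.6%, and a median window value of 2.17 in place of 1.81. A Bonferroni limit for 298184 tested windows (a lower bound) left 34 genes (24.1%) and 63 windows, with a median window value of 2.42 and a median strongest value of 2.56 in place of 2.27. A signal value of at least 2 left 117 windows and 37.6% of family genes, with a median window value of 2.28. These shifts follow from the stricter limits themselves, and under the same 3 limits the share of all RefSeq coding genes fell to 21.2%, 12.6% and 22.0%. Joining touching windows gave 213 regions. Leaving out the genes at 9 windows left 58 of the same 141 family genes, a share of 41.1%. Only genes with a window are removed in this way, so the share must fall. The matching share of all RefSeq coding genes was not computed, and 41.1% cannot be set against 31.8%. Without windows that overlap another gene 68 genes were left. Leaving out each family in turn moved the share between 48.1% and 50.8% and the median strongest value between 2.22 and 2.29. With 1000 bp in place of 500 bp, chosen after the data were seen, 34.8% of strongest windows lay near the gene start. In the listed coding genes that could be placed it was 37.7%.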
